A study of Homo sapiens with 12 samples.

Results

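The members were 10 genes that are named in textbooks for their place in the response to low oxygen, through secreted factors, lipid droplets, pH control, mitochondria and the endoplasmic reticulum. They are ADM, VEGFA, VEGFB, HILPDA, CA9, FAM162A, ERO1A, MXI1, NDRG1 and ANKRD37. They were chosen by symbol, 10 of the 28278 genes in the counts table, and all 10 passed the filter on low counts that left 15916 genes for testing. The genes the group is named for, with the positions of the GENCODE annotation on hg38, were ADM (ENSG00000148926.10, chr11:10305073-10307397), VEGFA (ENSG00000112715.26, chr6:43770184-43786487) and HILPDA (ENSG00000135245.10, chr7:128455849-128458418), all on the plus strand and all protein coding.

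Cells sense oxygen through the hypoxia-inducible factors (HIFs). When oxygen is ample, prolyl hydroxylases of the EGLN family mark the alpha subunit, the VHL protein then directs its ubiquitination and the proteasome removes it. When oxygen is scarce the alpha subunit is stable, pairs with ARNT and binds hypoxia response elements, DNA with the core letters ACGTG or GCGTG, beside genes of glucose use, blood vessel growth and pH control. Human embryonic stem cells (hESCs) are known to use much glycolysis, and low oxygen is a common culture condition for them.

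RNA-sequencing libraries of WA26, an hESC line, were compared in 4 groups of 2 libraries. WT cells and UBQLN1 knockout (KO) cells were kept untreated at normal O2, KO cells were cultured at 5% O2 (low O2), and KO cells were given N-acetyl-L-cysteine (NAC), an antioxidant and glutathione precursor. UBQLN1 encodes ubiquilin 1, a shuttle that brings ubiquitinated proteins to the proteasome. Every group came from the same line, the KO was made with CRISPR-Cas9 and carried as clones, the labels tie no library to a clone, and the labels name no vehicle for the libraries without NAC although the study used DMSO as vehicle. The text of the study gives conventional culture as 20% O2 and 24 h before sequencing on oxygen, whereas its treatment scheme gives 10 passages, so the length of exposure behind the low O2 and NAC libraries is uncertain. No WT library at low O2 or with NAC was analysed here. Whether a response depended on UBQLN1 was therefore not tested, and every treatment value below is for KO cells.

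The starts of the genes are shown first, since the members differ in how many cores of the hypoxia response element they hold. The set of RefSeq promoters used here, on GRCh38.p14, held 9 starts for 7 of the 10 members (ADM, VEGFB, ANKRD37, CA9, FAM162A, ERO1A and MXI1). The 250 bases before each were searched on both strands for ACGTG and GCGTG, counting overlapping matches such as those in CACGTG. VEGFA, HILPDA and NDRG1 had no entry in that set, so their starts were not searched. The 5 sequences printed are those of ADM and FAM162A, which were called at low O2, ANKRD37 and CA9, which had the fewest counts and were not called, and VEGFB, whose value there was close to 0. They lie at chr11:10304823-10305072, chr3:122383932-122384181, chr4:185396591-185396840, chr9:35673678-35673927 and chr11:64234334-64234583 in that order, all on the plus strand, and run 5′ to 3′ up to the base before the start, with matches in capitals.
ADM: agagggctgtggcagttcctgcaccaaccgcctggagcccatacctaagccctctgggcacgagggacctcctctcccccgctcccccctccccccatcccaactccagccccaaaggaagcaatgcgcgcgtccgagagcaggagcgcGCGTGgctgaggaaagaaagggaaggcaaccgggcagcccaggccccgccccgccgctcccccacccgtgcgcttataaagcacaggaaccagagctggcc
FAM162A: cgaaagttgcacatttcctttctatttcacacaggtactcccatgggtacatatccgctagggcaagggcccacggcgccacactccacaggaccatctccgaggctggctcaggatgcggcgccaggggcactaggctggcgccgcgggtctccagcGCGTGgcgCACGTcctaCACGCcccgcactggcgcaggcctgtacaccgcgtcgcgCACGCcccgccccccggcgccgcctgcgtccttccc
ANKRD37: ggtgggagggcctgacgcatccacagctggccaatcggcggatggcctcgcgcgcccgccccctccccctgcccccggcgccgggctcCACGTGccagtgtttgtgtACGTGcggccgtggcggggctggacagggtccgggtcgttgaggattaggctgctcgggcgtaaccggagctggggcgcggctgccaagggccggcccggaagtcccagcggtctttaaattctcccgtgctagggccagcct
CA9: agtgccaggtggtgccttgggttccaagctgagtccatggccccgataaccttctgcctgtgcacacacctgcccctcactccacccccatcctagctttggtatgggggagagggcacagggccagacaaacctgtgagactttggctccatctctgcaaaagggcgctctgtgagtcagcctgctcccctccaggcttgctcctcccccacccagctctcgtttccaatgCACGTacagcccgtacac
VEGFB: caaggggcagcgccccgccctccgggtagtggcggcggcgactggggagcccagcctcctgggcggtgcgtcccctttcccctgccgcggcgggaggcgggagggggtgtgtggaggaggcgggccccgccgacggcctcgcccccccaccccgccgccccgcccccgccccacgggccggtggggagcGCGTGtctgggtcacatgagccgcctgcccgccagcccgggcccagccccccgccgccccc

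At least 1 match stood before 8 of the 9 starts and in all 7 members, against 43.2% of 35116 promoters searched in the same way. ACGTG alone stood before 5 of the 9 starts, in 5 members (ANKRD37, CA9, FAM162A, ERO1A and MXI1), against 18.5% of promoters. ANKRD37 had ACGTG from base 143 to base 139 before the start and a CACGTG that gave overlapping matches on both strands between bases 162 and 157. CA9 had 1 match, on the minus strand between bases 18 and 14. FAM162A had 4 matches between bases 92 and 32, while ADM and VEGFB each had 1 GCGTG. These are matches of letters and were not measured as binding sites. The shares of all promoters are per start, not per gene, and were not matched for GC content. The members were chosen for their place in the response to low oxygen, so the comparison is a description and not a test.

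The libraries held 31236968 to 41639350 counts, and replicates differed by more than sampling noise (chi-square of 9.32 to 30.5 per degree of freedom). UBQLN1, the check of the genotype labels, was at 221 and 197 CPM, counts scaled by TMM to a common library size, in WT and between 42.3 and 62.4 CPM in the 6 KO libraries. All 10 pluripotency markers, POU5F1, NANOG and SOX2 among them, were above 1 CPM in every group, and their summed level ran from 6271 to 7550 CPM. The stromal marker list, 12 genes, summed to 1032 CPM in NAC replicate 1 and to 555 to 657 CPM in the other 7 libraries. In that library DCN was at 47.2 CPM and LUM at 3.86 CPM, and both were at 0 in every other library, NAC replicate 2 included. Endothelial markers, a concern for angiogenic genes, summed to 14.1 to 21.5 CPM. In bulk RNA, fewer cells of a type and less RNA per cell cannot be told apart.

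The members covered a wide range of levels. In untreated KO cells, per kilobase of mean transcript length, ERO1A (30.2 ± 2.52 CPM per kb, SD, n = 2), ADM (29.4 ± 0.28) and HILPDA (23.4 ± 0.19) were at the top. ERO1A and ADM overlapped, and both stood above HILPDA in each library. VEGFB (13.9 ± 2.11), FAM162A (13.8 ± 0.49) and VEGFA (12.3 ± 0.46) followed, and VEGFB overlapped with both of the others. MXI1 (6.72 ± 0.34), NDRG1 (4.21 ± 1.93), CA9 (0.69 ± 0.35) and ANKRD37 (0.52 ± 0.10) were the lowest, and CA9 and ANKRD37 overlapped. The order depends on the length used, since per kilobase of longest transcript HILPDA (18.9) and ADM (18.6) stood above VEGFB (8.46), ERO1A (8.10) and FAM162A (6.81), and VEGFA was at 1.86.

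**Figure D1:**
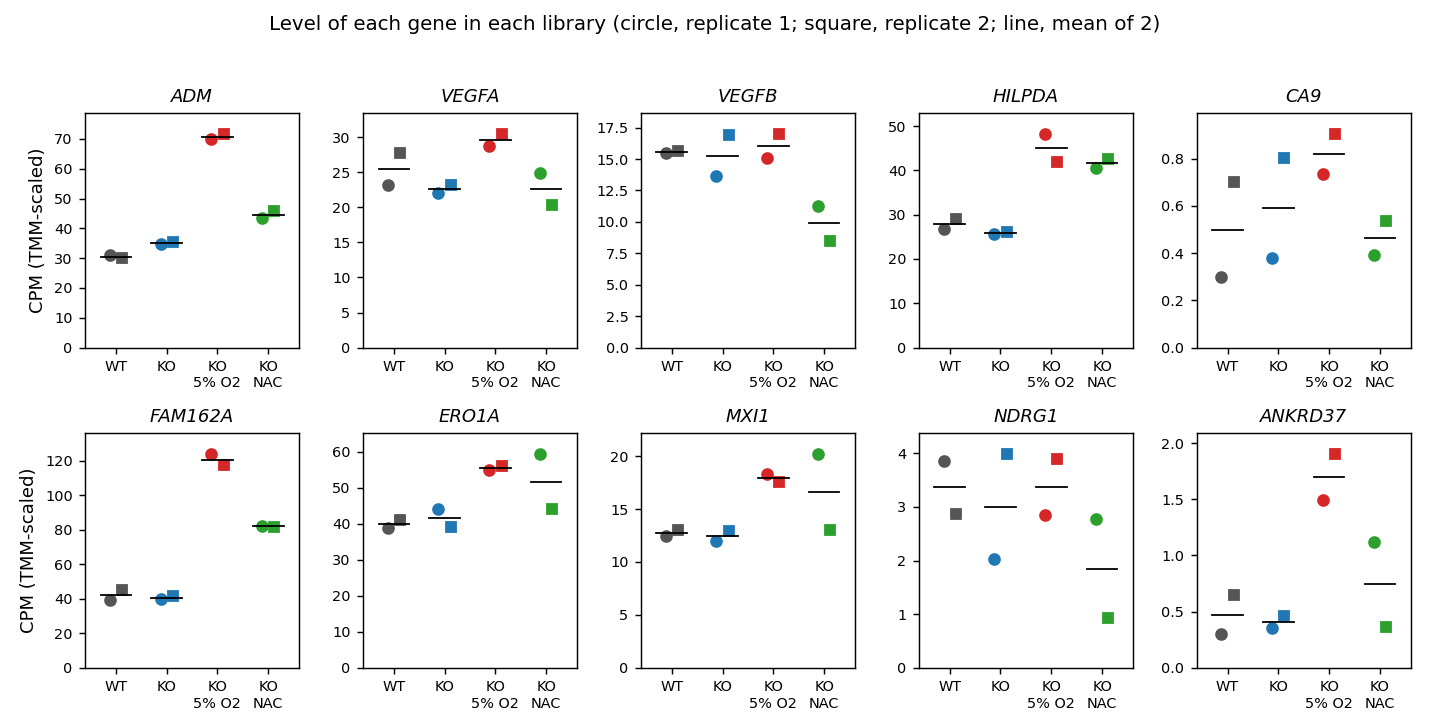
TMM-scaled CPM of each gene (y axes from 0, one scale per gene) in the 8 libraries, by group, with a circle for replicate 1, a square for replicate 2 and a line at the mean of 2. ADM, HILPDA and FAM162A are higher in both low O2 and both NAC libraries than in the other 4 libraries, and the NAC replicates of MXI1, NDRG1 and ANKRD37 lie far apart.

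Low oxygen was compared with normal oxygen in KO cells first. ADM, HILPDA and FAM162A rose at low O2, between 1.74-fold and 2.97-fold. ANKRD37 had the largest value, 4.13-fold, at few counts and was not called. VEGFA, ERO1A and MXI1 were between 1.31-fold and 1.44-fold and were not called, and VEGFB, NDRG1 and CA9 overlapped between the groups. A gene was called at an adjusted p under 0.05 by the quasi-likelihood test of edgeR, adjusted after Benjamini and Hochberg over all 15916 genes. By that rule 3 of the 10 members were called higher and 0 lower, where 3.68% of all tested genes were called higher and 4.13% lower. At an unadjusted p under 0.05 there were 7 members, all higher, against 24.8% of all genes in either direction. DESeq2 called 5 higher, where it called 9.36% of the 11479 genes to which it gave an adjusted p higher. ANKRD37, NDRG1 and CA9 were not among those genes. The number of calls changed with the libraries in the fit. It was 7 without NAC replicate 1 (8.04% of all genes called higher), 7 without NAC replicate 2 (7.89%) and 7 when only the 4 libraries compared were fitted (9.53%), with ANKRD37, ERO1A, MXI1 and VEGFA added each time.

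ADM encodes adrenomedullin, a secreted peptide that widens blood vessels and acts through the receptor CALCRL with a RAMP partner. ADM was at 34.8 and 35.3 CPM in untreated KO cells and at 69.8 and 71.6 CPM at low O2. Both low O2 libraries were thus at around 2.02-fold the controls, and the replicates of each group lay within 1.03-fold of each other. The log2 fold change was 1.01 (SE, the standard error, 0.09, 95% interval 0.81 to 1.21, adjusted p = 0.000225), and the call held under all 20 alternatives tried.

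VEGFA encodes the main growth factor of blood vessels, and VEGFB a relative that binds FLT1 and is known to respond little to hypoxia. VEGFA was at 22.0 and 23.2 CPM in untreated KO cells and at 28.8 and 30.4 CPM at low O2. The groups did not overlap, yet the log2 fold change of 0.39 (SE 0.13, interval 0.10 to 0.68) missed the threshold (adjusted p = 0.0935). VEGFA was also at 23.2 and 27.7 CPM in WT, below both low O2 libraries. VEGFB was at 13.6 and 16.9 CPM in untreated KO cells and at 15.1 and 17.0 CPM at low O2. Its groups overlapped, and the log2 fold change of 0.07 had an interval from -0.30 to 0.44 (adjusted p = 0.847), which leaves room for a change in either direction. The difference in response between VEGFA and VEGFB was not tested.

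Among the other ligands and receptors of these families, calls at low O2 were few, as they were among all tested genes. Of 15 tested genes, 0 were called higher and 2 lower, where 3.68% of all tested genes were called higher and 4.13% lower. At such shares, 0 called higher does not set ADM apart from its families. At an unadjusted p under 0.05 there were 3, against 24.8% of all genes. DESeq2 also called 0 higher and 2 lower, against 9.36% and 9.02%. The 2 were ADM2, the related peptide intermedin, at a log2 fold change of -0.91 (adjusted p = 0.0282), and KDR, the main signalling receptor of VEGFA, at -0.40 (adjusted p = 0.0327). KDR is an endothelial gene that hESCs are known to express, and it was at 67.8 and 67.7 CPM in untreated KO cells against 48.9 and 53.9 CPM at low O2. The median of the 15 genes was -0.02.

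HILPDA encodes a small protein of lipid droplets that inhibits adipose triglyceride lipase (PNPLA2) and so slows the breakdown of stored fat. It was at 25.7 and 26.0 CPM in untreated KO cells and at 48.2 and 41.9 CPM at low O2. The groups were far apart, with a log2 fold change of 0.80 (SE 0.11, interval 0.56 to 1.04, adjusted p = 0.00329). Leaving out a library ended the call 3 times, without low O2 replicate 1 (adjusted p = 0.0927), without KO replicate 1 (0.0785) and without KO replicate 2 (0.0516), at log2 fold changes between 0.70 and 0.81.

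The other lipid droplet genes were called about as often as all tested genes. DESeq2 called 3 higher and 1 lower of them, where it called 9.36% of all genes higher and 9.02% lower. At an unadjusted p under 0.05 there were 6, against 24.8% of all genes. By edgeR, of 26 tested genes of lipid droplets and neutral lipid, 1 was called higher and 0 lower at low O2, against 3.68% and 4.13%. The 1 gene was PLIN2, the coat protein of lipid droplets in most cells, at a log2 fold change of 0.44 (SE 0.10, adjusted p = 0.0242). PNPLA2, the lipase that HILPDA inhibits, had a value of -0.37 (adjusted p = 0.051). The median of the list was -0.09.

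FAM162A encodes a mitochondrial protein known to respond to hypoxia and to promote cell death. It was at 39.6 and 41.6 CPM in untreated KO cells and at 124 and 117 CPM at low O2. It had the smallest adjusted p of the 10 members, with a log2 fold change of 1.57 (SE 0.10, interval 1.36 to 1.78, adjusted p = 1.4e-05), and it too was called under all 20 alternatives. CA9 encodes a carbonic anhydrase of the cell surface that helps cells export acid, a classic marker of hypoxia in tumours. CA9 was at 14 and 33 counts (0.38 and 0.80 CPM) in untreated KO cells and at 30 and 29 counts (0.74 and 0.90 CPM) at low O2. The groups overlapped, and the interval of the log2 fold change of 0.46 ran from -0.84 to 1.76 (adjusted p = 0.688), so a change was not detectable in these libraries. Of 10 other carbonic anhydrases tested, 0 were called in either direction by edgeR and by DESeq2, and 2 passed an unadjusted p under 0.05. Among all tested genes edgeR called 3.68% higher and 4.13% lower, and 24.8% passed the unadjusted threshold.

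ERO1A encodes the oxidase that renews protein disulphide isomerase in the endoplasmic reticulum, a step that uses oxygen. It was at 44.1 and 39.2 CPM in untreated KO cells and at 55.0 and 55.9 CPM at low O2. The groups did not overlap, and the log2 fold change of 0.41 (SE 0.13) was not called (adjusted p = 0.0751). Of 16 other genes of oxidative folding, 4 were called higher and 0 lower, where 3.68% of all tested genes were called higher and 4.13% lower. DESeq2 called 6 higher, against 9.36% of all genes. At an unadjusted p under 0.05 there were 8, against 24.8% of all genes. The 4 were VKORC1 (log2 fold change 0.50), PRDX4, a peroxiredoxin of the endoplasmic reticulum (0.50), TMX1 (0.34) and PDIA3, a disulphide isomerase (0.29). These 4 were not called with the trend of length and GC content removed.

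MXI1 encodes a partner of MAX that opposes MYC. It was at 12.01 and 12.9 CPM in untreated KO cells and at 18.3 and 17.6 CPM at low O2, apart in every library, with a log2 fold change of 0.53 (SE 0.18, adjusted p = 0.0993). Of 12 other genes of the MYC, MAX and MXD network, 0 were called higher and 1 lower, namely MLXIP (log2 fold change -0.51). Among all tested genes 3.68% were called higher and 4.13% lower. In the network 3 genes passed an unadjusted p under 0.05, and DESeq2 called 0 higher and 2 lower. NDRG1, a stress-responsive gene repressed by MYC proteins, was at 2.03 and 3.98 CPM in untreated KO cells and at 2.85 and 3.90 CPM at low O2. The controls enclosed both treated libraries (log2 fold change 0.16, interval -0.82 to 1.13, adjusted p = 0.868). ANKRD37, which encodes a small ankyrin repeat protein, was at 13 and 19 counts (0.35 and 0.46 CPM) in untreated KO cells and at 61 and 61 counts (1.496 and 1.90 CPM) at low O2. Both low O2 libraries were higher, with a log2 fold change of 2.05 (SE 0.59, interval 0.75 to 3.34) and an adjusted p of 0.0568. By the cut-off of the study, an absolute log2 fold change over 1 with an unadjusted p under 0.05, ADM, ANKRD37 and FAM162A were called on the edgeR values, where the background was 0.811%. The study put that cut-off on DESeq2 values, and there ADM, ANKRD37 and FAM162A were called as well, where the background was 0.605% of 21141 genes.

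Across the group, 7 of the 10 members were higher in both low O2 libraries than in both controls, where 30.7% of all tested genes were. The log2 fold change was above 0 for all 10, with a median of 0.49, where the median of all tested genes was -2e-04 and 7948 of 15916 were positive. Other HIF targets, a list of genes outside the group, had a median of 1.35. That list and the members were chosen with earlier results of these data known, so their medians are not a neutral comparison. Of the 44 other HIF targets, 31 were called higher and 0 lower, where 3.68% of all tested genes were called higher and 4.13% lower. At an unadjusted p under 0.05 there were 36, against 24.8% of all genes. DESeq2 called 29 higher and 0 lower, against 9.36% and 9.02%. The 31 became 18 without low O2 replicate 1, 18 without KO replicate 1 and 20 without KO replicate 2. Among them, DDIT4, an inhibitor of mTORC1, rose by 3.43 on the log2 scale (adjusted p = 0.0193) and RIMKLA by 3.28 (0.000622). SLC16A3, the lactate exporter MCT4, rose by 3.07 (0.000452) and PDK1, a pyruvate dehydrogenase kinase, by 3.04 (0.000143). All 10 members were below these 4 in size. The 4 were picked as the largest called values of their list, so this does not rank the members. Of 8 HIF subunits and regulators, VHL was called lower (log2 fold change -0.59, adjusted p = 0.0253), 0 were called higher, 2 passed an unadjusted p under 0.05 and DESeq2 also called 1 lower and 0 higher. Leaving out any low O2 or untreated KO library ended most calls among all tested genes, so such losses are not particular to these lists. The calls of 10 of the genes named from the lists were lost in the same way. DDIT4, ADM2, KDR, PLIN2, VKORC1, PRDX4, TMX1, PDIA3, MLXIP and VHL were each lost without low O2 replicate 1 (adjusted p from 0.200 to 0.306), without KO replicate 1 (0.152 to 0.265) and without KO replicate 2 (0.127 to 0.224), and 8 of them without low O2 replicate 2 (0.0715 to 0.134). RIMKLA, SLC16A3 and PDK1 kept their calls with any library left out. The median of the members was 0.77 without KO replicate 2.

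**Figure D2:**
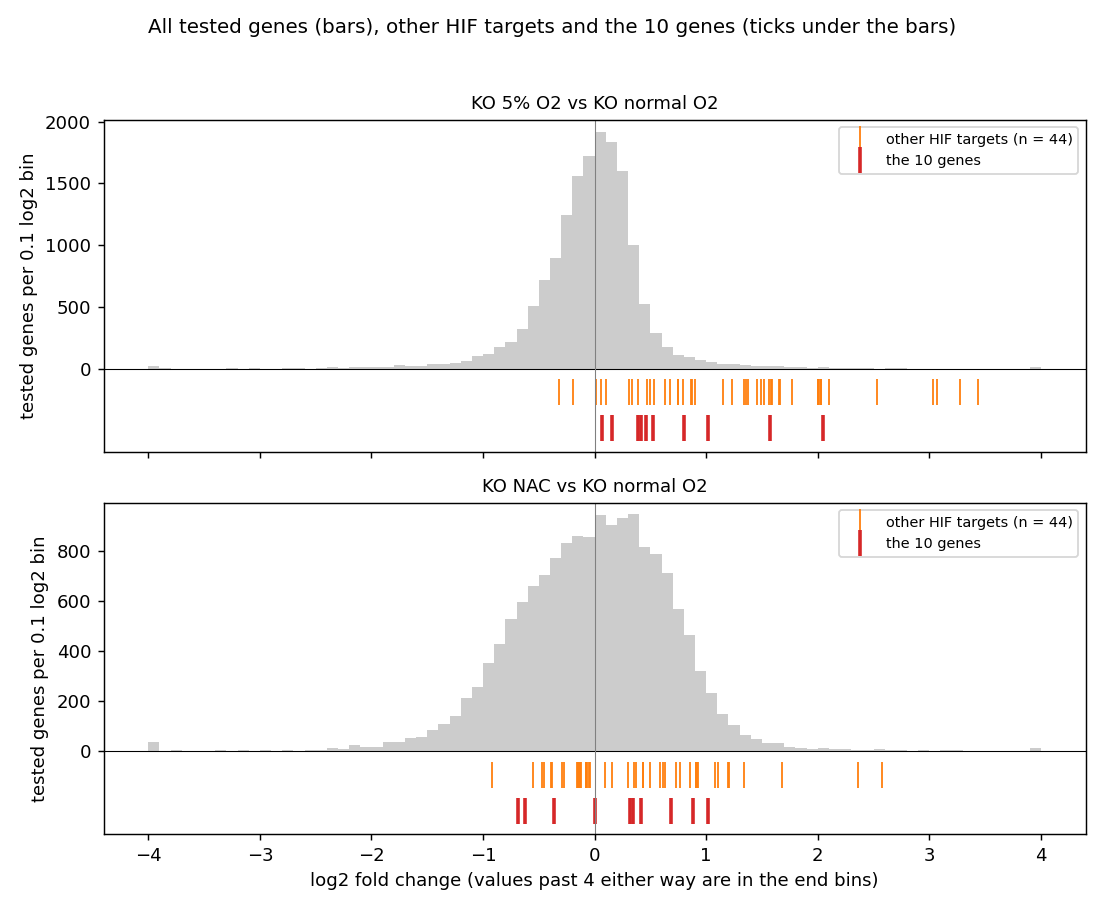
Log2 fold changes at low O2 (top) and with NAC (bottom) against untreated KO cells, with bars counting the 15916 tested genes per 0.1 log2 bin and ticks for 44 other HIF targets (orange) and the 10 genes (red). At low O2 all 10 genes lie above 0, with a median of 0.49 against 1.35 for the other HIF targets. With NAC 7 of the 10 lie above 0. Both sets of genes were chosen with earlier results of these data known.

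NAC was then compared with the same untreated KO libraries, so both treatments share their controls and their values are given side by side. FAM162A, HILPDA and ADM rose with NAC, 2.02-fold, 1.61-fold and 1.27-fold, and VEGFB fell. The other 6 members were not called. NAC moved much of the transcriptome, with 23.8% of tested genes called higher and 20.8% lower, so that 3 members called higher and 1 called lower of 10 is near the background in either direction. The median of the members was 0.33 where that of all genes was 0.02, and it was -0.05 without NAC replicate 1 and 0.19 with the trend of length and GC content removed. By the study's cut-off FAM162A alone was called on the edgeR values, with a background of 3.63%, and 0 members on DESeq2 values, with a background of 2.28% and FAM162A at 0.98.

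FAM162A was at 82.1 and 81.7 CPM with NAC against 39.6 and 41.6 CPM without it, with a log2 fold change of 1.01 (SE 0.10, adjusted p = 2.04e-05) that was called under 19 of 20 alternatives, all but the study's cut-off on DESeq2 values. HILPDA was at 40.5 and 42.7 CPM with NAC, above the 25.7 and 26.0 CPM of the controls, with a log2 fold change of 0.69 (SE 0.11, adjusted p = 0.000341). ADM was at 43.4 and 45.9 CPM with NAC, above the 34.8 and 35.3 CPM of the controls, with a log2 fold change of 0.35 (SE 0.09, adjusted p = 0.00909). For all 3 genes the NAC replicates lay within 1.06-fold of each other. The call of ADM was lost without KO replicate 1 (adjusted p = 0.0733) and without KO replicate 2 (0.0615).

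VEGFB was at 11.3 and 8.45 CPM with NAC and at 13.6 and 16.9 CPM without it. Both NAC libraries were the lowest of all 8, with a log2 fold change of -0.63 (SE 0.17, interval -1.003 to -0.249, adjusted p = 0.0111). The call was lost without KO replicate 2 (adjusted p = 0.121) and after the correction for length and GC content. VEGFA was at 24.8 and 20.4 CPM with NAC, on either side of the controls, with a log2 fold change of 0.00 and an interval from -0.29 to 0.30. Among their relatives NRP2, a coreceptor of VEGF proteins, was lower (-0.99, adjusted p = 0.000342), ADM2 was lower (-1.45, adjusted p = 0.000242, but -0.58 and 0.0595 with the trend of length and GC content removed) and CALCB, a peptide of the calcitonin family, was higher (1.41, adjusted p = 0.000347). In all, 2 of the 15 genes were called higher and 3 lower, where 23.8% of all tested genes were called higher and 20.8% lower.

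Of the 6 members that were not called with NAC, 5 differed between the 2 NAC libraries by 1.35-fold to 3.05-fold and VEGFA by 1.22-fold, while VEGFB, which was called, differed by 1.34-fold. ANKRD37 was at 43 counts (1.122 CPM) in NAC replicate 1 and at 11 counts (0.37 CPM) in NAC replicate 2. NDRG1 was at 2.77 and 0.94 CPM, MXI1 at 20.2 and 12.99 CPM and ERO1A at 59.3 and 43.99 CPM in the same order. CA9, at 0.39 and 0.53 CPM, had its higher value in replicate 2. In replicate 1, ANKRD37, MXI1 and ERO1A stood above both untreated KO libraries, and in replicate 2 ANKRD37 and ERO1A lay between the controls and MXI1 next to the higher of them. The same library was higher for 7 of the 10 members, for 41 of 44 other HIF targets (93.2%) and for 50.5% of all tested genes, with median log2 differences of 0.34, 0.42 and 0.00. In the other 3 groups 1 to 3 members were higher in replicate 1, and 47.7% to 54.5% of the other HIF targets were. DDIT4 was at 163 CPM in NAC replicate 1 and at 15.2 CPM in replicate 2, where untreated KO cells were at 17.3 and 17.4 CPM.

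With 1 NAC library left out, the remaining one is assumed to vary like the libraries of the other groups. Without NAC replicate 1, which was also the library with stromal markers, ADM (log2 fold change 0.39), HILPDA (0.72) and FAM162A (1.01) were still called higher, while ANKRD37 was at -0.15, MXI1 at 0.06 and ERO1A at 0.08, and NDRG1 (-1.69, from 28 counts in the remaining library) was called lower beside VEGFB (-0.86). Without NAC replicate 2, ANKRD37 (1.45), MXI1 (0.70) and ERO1A (0.51) were called higher beside ADM, HILPDA and FAM162A, which made 6 members, and CA9 and VEGFA were called in neither case. The part of stromal cells in the values of replicate 1 was not tested.

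Other HIF targets and lipid droplet genes were called in both directions with NAC. No gene of oxidative folding was called lower by edgeR or DESeq2, but this did not hold under every alternative. Among all tested genes 23.8% were called higher and 20.8% lower. These shares were 16.3% and 15% with the trend of length and GC content removed. They also fell when either untreated KO library was left out, so such losses are not particular to these lists. Of 44 other HIF targets, 20 were called higher and 4 lower, with a median of 0.36. Without NAC replicate 1 they were 11 and 8, without KO replicate 1 they were 11 and 3, without KO replicate 2 they were 10 and 2, and with the trend of length and GC content removed they were 13 and 3. P4HA1, a collagen prolyl hydroxylase, was called at 1.34 (adjusted p = 7.4e-05), and DDIT4 at 2.36 (adjusted p = 0.0144) although it was at -0.20 without NAC replicate 1. Of 26 lipid droplet genes 7 were called higher and 7 lower, shares near the 23.8% and 20.8% of all genes. They became 3 and 2 without KO replicate 1, 2 and 3 without KO replicate 2, 4 and 6 without NAC replicate 2, and 2 and 3 with the trend of length and GC content removed. FABP3, a fatty acid carrier, was higher (1.11, adjusted p = 0.00258) and PNPLA3 was lower (-0.65, adjusted p = 0.00135). PLIN2 had a log2 fold change of 0.33 (adjusted p = 0.0162) and PNPLA2 of -0.59 (adjusted p = 0.00077). Of 16 genes of oxidative folding, 10 were called higher and 0 lower (DESeq2 10 and 0), among them PRDX4 (1.14, adjusted p = 1.94e-05) and ERO1B, the paralog of ERO1A (0.81, adjusted p = 0.0196). The calls of DDIT4 and ERO1B were lost without KO replicate 1 (adjusted p = 0.0855 and 0.145) and without KO replicate 2 (0.0858 and 0.0502), and FABP3 was at 0.65 without NAC replicate 1, where it was still called.

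**Figure D3:**
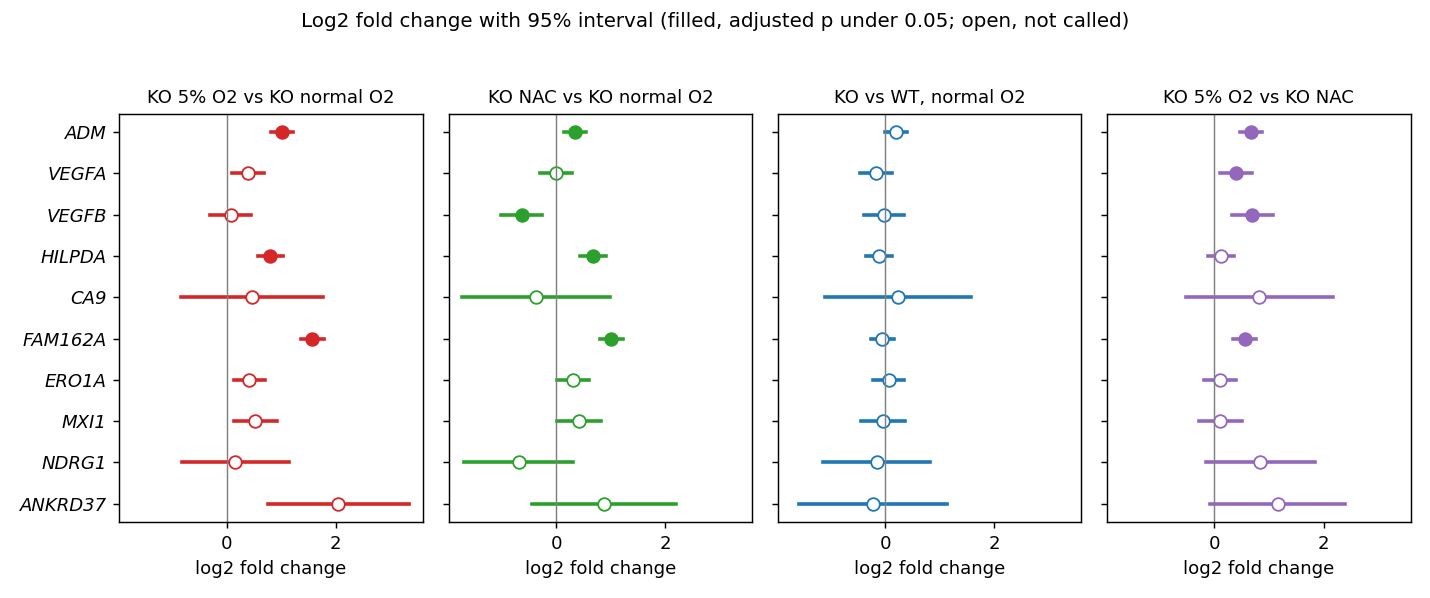
Log2 fold changes (x axis) with 95% intervals of the 10 genes (y axis) in the 4 comparisons from edgeR's quasi-likelihood fit of 8 libraries, filled where the adjusted p is under 0.05. ADM, HILPDA and FAM162A are filled for both treatments, no gene is filled for KO against WT, and the intervals of CA9, NDRG1 and ANKRD37 are the widest.

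Low O2 and NAC were also compared directly, without the shared controls. ADM was higher at low O2 than with NAC (log2 fold change 0.66, SE 0.09, adjusted p = 0.000667), and so were FAM162A (0.56, adjusted p = 0.00173), VEGFB (0.69, adjusted p = 0.0113) and VEGFA (0.39, adjusted p = 0.0484). HILPDA was not called between the treatments. Its libraries overlapped, at 48.2 and 41.9 CPM at low O2 against 40.5 and 42.7 CPM with NAC, and the log2 difference of 0.12 had an interval from -0.12 to 0.35 (adjusted p = 0.457). The 4 called members compare with 13.6% of all tested genes called higher at low O2 than with NAC and 15.5% called lower, and all 10 members had a positive value, with a median of 0.61 (0.39 without NAC replicate 2) against -0.04 for all genes. Without NAC replicate 1, 8 members were called higher, where 12.8% of all genes were, and without low O2 replicate 2, 2 were, where 4.31% of all genes were. The call of VEGFB was lost without low O2 replicate 2 (adjusted p = 0.113). The call of VEGFA was lost under 13 of 20 alternatives, and those of ADM and FAM162A under 2 each, the study's cut-off on edgeR values and on DESeq2 values. By that cut-off 0 members were called on either, and on the edgeR values 2.46% of all genes were higher. For ERO1A and MXI1 the interval ran from -0.19 to 0.39 and from -0.29 to 0.51.

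The genotype made no difference that passed the test. At normal O2, 0 of the 10 members were called in either direction between KO and WT by edgeR's quasi-likelihood test, 0 passed an unadjusted p under 0.05 and DESeq2 called 0. The background was 1.34% of genes higher and 0.622% lower. ADM was at 31.0 and 30.0 CPM in WT and at 34.8 and 35.3 CPM in KO. For this contrast 17.6% of all genes passed an unadjusted p under 0.05. ADM was the member nearest the threshold, higher in both KO libraries, with a log2 fold change of 0.20 (interval -0.0011 to 0.41, adjusted p = 0.286). HILPDA, at 26.8 and 29.1 CPM in WT, was lower in both KO libraries, with a log2 fold change of -0.11 (interval -0.35 to 0.13, adjusted p = 0.639). The other 8 overlapped between genotypes, where 27.7% of all genes were higher and 27% lower without overlap. The intervals of VEGFA (-0.47 to 0.12), FAM162A (-0.26 to 0.16) and ERO1A (-0.23 to 0.35) were narrow, whereas those of CA9 (-1.10 to 1.57), ANKRD37 (-1.58 to 1.13) and NDRG1 (-1.13 to 0.82) would hold a 2-fold change. Genes beside them did differ, with KDR lower (-0.80, adjusted p = 0.00118), VHL higher (0.63, adjusted p = 0.0357) and AK4, a mitochondrial adenylate kinase, higher (0.47, adjusted p = 0.0491) in KO. AK4 was the 1 gene called among 44 other HIF targets. The calls of VHL and AK4 were lost with any library of WT, untreated KO or low O2 left out (adjusted p from 0.0803 to 0.400).

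GC content moved with the fold changes of all genes, and the members differ in it. Across 15461 genes with a known length and GC content, which are not independent replicates, the Spearman correlation of GC with the log2 fold change was -0.31 at low O2, -0.47 with NAC, 0.39 for low O2 against NAC and 0.13 for KO against WT. FAM162A (41.0% GC) and ERO1A (41.6%) are at the low end and ADM (59.6%) and VEGFB (60.7%) at the high end. After each library was corrected for its smooth dependence on GC and transcript length, the 3 calls at low O2 remained, with log2 fold changes of 1.06 for ADM, 0.68 for HILPDA and 1.51 for FAM162A. With NAC, ADM went from 0.35 to 0.51, HILPDA from 0.69 to 0.42 and FAM162A from 1.01 to 0.79, and all 3 were still called. ERO1A turned from 0.31 to -0.25 with NAC (adjusted p = 0.169), and VEGFB went to -0.47 (adjusted p = 0.0507). Of the genes named from the lists at low O2, ADM2 (-0.53), KDR (-0.34), PLIN2 (0.28), VKORC1 (0.44), PRDX4 (0.28), TMX1 (0.20), PDIA3 (0.24), MLXIP (-0.34) and VHL (-0.53) were no longer called, with adjusted p from 0.0589 to 0.196, and DDIT4, RIMKLA, SLC16A3 and PDK1 were. With NAC, ERO1B (0.64, adjusted p = 0.0845) was no longer called, and PRDX4 (0.69) and FABP3 (0.72) still were. Between KO and WT, AK4 (adjusted p = 0.071) and VHL (0.0685) were no longer called.

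**Figure D4:**
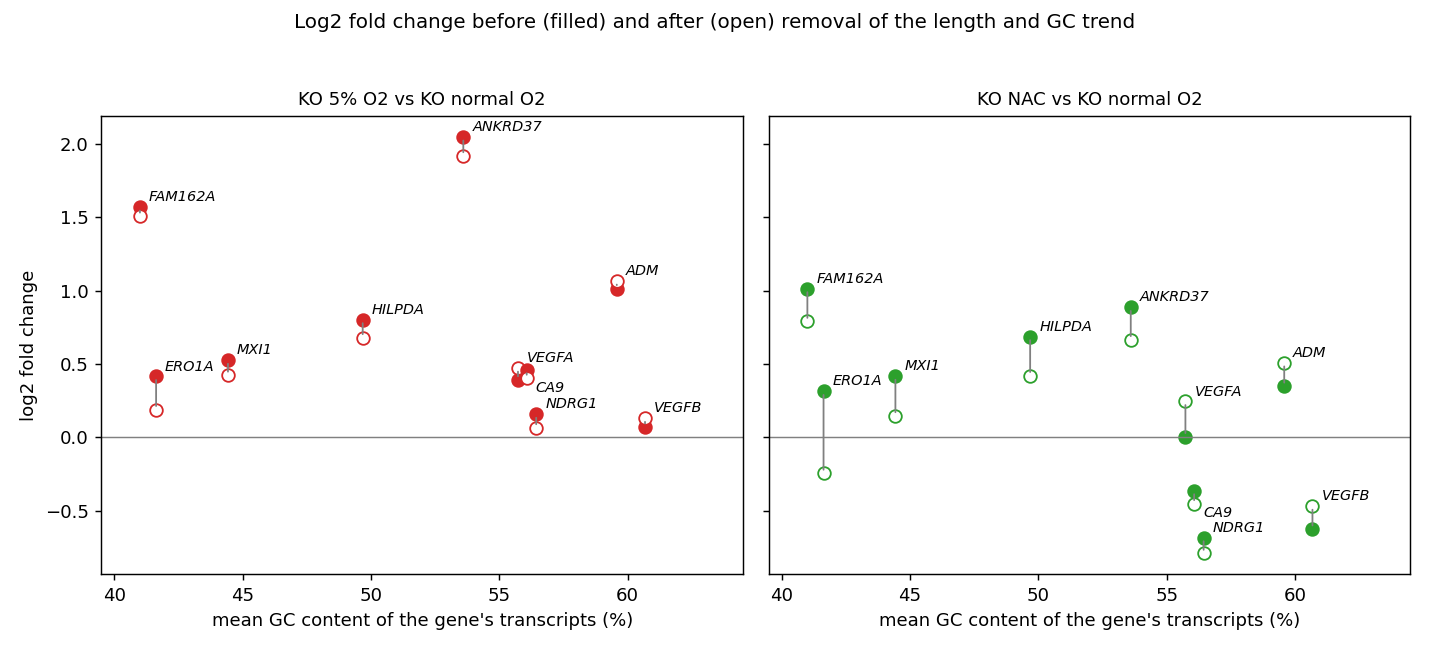
Log2 fold change of the 10 genes (y axis) against the mean GC content of their transcripts in percent (x axis), before (filled) and after (open) removal of the length and GC trend, at low O2 (left) and with NAC (right). The largest move is that of ERO1A with NAC, from 0.31 to -0.25, while ADM and FAM162A keep their sign in both panels.

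Some members share exons with other genes. ANKRD37 shares 40.3% of its exonic bases with UFSP2 and CA9 35.7% with ARHGEF39, both on the opposite strand, and HILPDA 8.99% with HILPDA-AS1. The TruSeq RNA kit named in the labels does not mark strand, so reads there cannot be given to one gene, and featureCounts at its default settings leaves out reads that overlap more than 1 gene. The levels of ANKRD37 and CA9 are thus uncertain, and they were also the members with the fewest counts.

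Genes with the most similar pattern were found for ADM, VEGFA and HILPDA by the root mean square difference of centred log2 CPM over 8 libraries, among 15906 tested genes outside the group. Nearest to ADM were C4orf3 (0.12), PRELID2 (0.16) and ENO1 (0.16), and ENO1 is the glycolytic enzyme enolase. For VEGFA they were HDDC3 (0.07), LSM12 (0.08) and CEP41 (0.08), and for HILPDA they were RIOK3 (0.06), ISCA1 (0.07) and ORC5 (0.11). C4orf3 had log2 fold changes of 1.26 at low O2 and 0.53 with NAC, and RIOK3 had 0.80 and 0.66, beside 1.01 and 0.35 for ADM and 0.80 and 0.69 for HILPDA. The likeness is a description of 8 libraries in 4 groups.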

How the data were processed

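RNA was sequenced from hESCs of the line WA26 with the Illumina TruSeq RNA kit. The authors trimmed adapters with trim-galore, aligned to hg38 with HISAT2 and assigned reads to genes by featureCounts, whose defaults they kept. FastQC 0.11.9 is also named in the submitters' processing notes. The deposited values are raw counts without normalization, and the annotation behind them is not given in the sources used here. The labels describe 12 samples, of which 8 were analysed, and the 4 WT libraries at 5% O2 or with NAC were not analysed here.

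The members and all gene lists were chosen with earlier results of these data known. Low genes were removed with filterByExpr (minimum count 10) and libraries scaled by TMM. Then edgeR 4.0.16 (R 4.3.3) fitted all 8 libraries in 4 groups by quasi-likelihood, without a block and with 4 residual degrees of freedom. P-values were adjusted by the Benjamini-Hochberg method over the 15916 genes. The biological coefficient of variation came to 13.7%. With 2 libraries per group, whose origin in separate cultures the labels do not give, p-values measure the spread between these libraries, which may be technical. Named genes were the 10 members, UBQLN1, at most 4 called genes with the largest absolute log2 fold change from each list and comparison, and the 3 genes nearest in pattern to ADM, VEGFA and HILPDA. PNPLA2, PLIN2 with NAC, KDR outside its calls, and DCN and LUM were named after their values were seen. Alternatives were DESeq2 1.42.0, RLE and upper quartile scaling, other filters, the study's cut-off on edgeR values and, chosen after seeing the data, on DESeq2 values, fitting the compared libraries alone, a replicate block, each library left out in turn (a lone library is then assumed to vary like the other groups), and removal of a length and GC trend (mgcv 1.9.3). Lengths, GC content and exon overlap came from GENCODE on hg38 and were known for 97.1% of tested genes. Promoters are RefSeq sequences. Scripts were tested on simulated data.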

Additional observations from a re-analysis of the deposited data

How the results depend on the processing

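Of 20 alternatives per gene and comparison, of which the study's cut-off on DESeq2 values was chosen after seeing the data, ADM and FAM162A at low O2 kept their calls under all and FAM162A with NAC under 19. The number of members called higher at low O2, 3, became 5 with DESeq2, 6 with no filter on low counts and 7 with only the libraries compared, and 2 to 7 with a library left out. The share of all genes called higher, 3.68%, moved with it, to 9.36%, 4.91% and 9.53%, and to 0.175% to 8.04% with a library left out. With NAC, the 3 called higher became 1 by the study's cut-off on edgeR values and 0 on DESeq2 values, 5 with no filter and 2 to 6 with a library left out, and the 1 called lower became 0 by the study's cut-off on either and 0 with the length and GC trend removed, with or without the replicate block, and 0 to 2 with a library left out. For low O2 against NAC, the 4 called higher became 0 by the study's cut-off on either and 2 to 8 with a library left out. KO against WT gave 0 throughout. The cause was not tested.

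Replicate numbers are shared between groups, but the deviations of same-numbered libraries correlated only from -0.0226 to 0.0816. No strong effect shared by number was seen. Whether the numbers mark a shared clone or culture cannot be told from 2 libraries per group. With the replicate block, 3 members were called higher at low O2, 3 higher and 1 lower with NAC, and 3 rather than 4 for low O2 against NAC, where VEGFA was lost (adjusted p = 0.0545, and 0.0538 with the block within genotype). Under the block within genotype, KO against WT turned to 0.58 for ANKRD37, 0.0461 for FAM162A and 0.0989 for MXI1.

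Changes of direction were found for values that were not called, and for CHAC1 and DDIT4. With NAC, VEGFA, at 0.0038, turned to -0.0086 with at least 10 counts in every library, -0.0244 with DESeq2, -0.0014 with no filter, -0.0194 with only the libraries compared, -0.0254 with RLE and -0.0135 with upper quartile scaling. ERO1A turned to -0.2458 with the trend removed and to -0.2484 with the block added. Ranges over the left-out libraries were, with NAC, -0.1529 to 1.4522 for ANKRD37, -0.7968 to 0.2755 for CA9, -0.1964 to 3.2272 for DDIT4 and -0.1511 to 0.1385 for VEGFA. At low O2 they were -0.2438 to 0.726 for NDRG1 and -0.077 to 0.2335 for VEGFB. For low O2 against NAC they were -1.622 to 0.0015 for CHAC1, a gene of the ATF4 stress response, -0.0961 to 0.3377 for ERO1A, -0.1701 to 0.4676 for MXI1 and -0.3255 to 0.0182 for UBQLN1. For KO against WT they were -0.6626 to 0.4405 for ANKRD37, -0.4035 to 0.9758 for CA9, -0.0259 to 0.144 for ERO1A, -0.1416 to 0.0437 for FAM162A, -0.0899 to 0.014 for MXI1, -0.7271 to 0.2431 for NDRG1 and -0.1892 to 0.1219 for VEGFB.

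CA9, NDRG1 and ANKRD37 had intervals that hold a 2-fold change in all 4 comparisons. CA9 and ANKRD37 had the fewest counts, and the replicates of NDRG1 differed by up to 2.96-fold. With 2 libraries per group, every value is limited by their spread.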
